A study of Capra hircus with 10 samples.

Results

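KIT and its ligand KITLG were examined in whole ovaries of the Anhui white goat. Their rows were taken by gene symbol among the protein-coding transcripts, which gave 2 genes of 20587 and 4 transcripts of 50146, with 2 transcripts for KIT and 2 for KITLG. The study compared 5 ovaries in the luteal phase with 5 ovaries in the follicular phase, with 1 library of ribosomal RNA-depleted total RNA per ovary. The ovaries came from a slaughterhouse and were frozen after a wash in saline, the study compared no treatment, and the ages of the goats are not given in the sources used here. The labels do not say that the ovaries came from separate goats, so the p-values measure only the spread between these ovaries. The values are FPKM, fragment numbers corrected for transcript length and library size, and their sum ranged from 452508 to 503276 in luteal phase ovaries and from 492324 to 540124 in follicular phase ovaries. The files hold no read counts per library, so no counting error is given for a value. The labelled tissue and phases were checked against defining genes. The oocyte genes GDF9 and ZP3 and the granulosa cell gene FSHR were above 0 in all 10 ovaries, and STAR, the cholesterol carrier of steroid synthesis, was at 2651 ± 507 FPKM in luteal phase ovaries against 16.6 ± 5.58 in follicular phase ovaries (mean ± SD, n = 5 each).

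KIT is a receptor tyrosine kinase of class III, and KITLG, also called stem cell factor, is its ligand. In the mammalian ovary KITLG is known mainly as a product of granulosa cells, while KIT is carried by oocytes and by theca and interstitial cells. The pair is known for its part in germ cell survival, in the awakening of primordial follicles through PI3K, AKT and FOXO3, and in the growth of theca cells. Outside the gonads KIT also marks mast cells, melanocytes and blood progenitors, and KITLG is also made by endothelial cells. KITLG is made in forms that differ in an alternatively spliced exon with a cleavage site, one form being shed readily and the other staying mostly on the membrane. The sources used here do not say which form each KITLG transcript encodes.

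Both genes were higher in the luteal phase. KIT rose by 2.59 ± 0.14 on the log2 scale (± standard error, limma adjusted p = 2.29e-07), which is 6.03-fold, and KITLG by 1.91 ± 0.19 (limma adjusted p = 2.58e-05), which is 3.76-fold. For both genes all 5 luteal phase values lay above all 5 follicular phase values. Of all 15359 genes tested, 15.9% were called higher in the luteal phase, and 11.2% had every luteal phase value above every follicular phase value, while 27.8% were called lower. By log2 fold change KIT was in place 146 and KITLG in place 289 of the genes tested. The median log2 fold change of all tested genes was -0.14. In bulk ovary RNA, more cells that carry a transcript and more transcript per cell cannot be told apart.

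KIT had an FPKM of 12.8, 11.5, 11.1, 11.2 and 13.1 in follicular phase replicates 1 to 5. In luteal phase replicates 1 to 5 it was at 59.5, 56.5, 69.3, 92.6 and 91.5. The follicular phase ovaries were thus close together, with a highest value 1.17 times the lowest, and the luteal phase ovaries were more spread, with a highest value 1.64 times the lowest. The lowest luteal phase value was 4.32 times the highest follicular phase value. The phase means were 73.9 ± 17.2 and 11.9 ± 0.918 (SD, n = 5 each). By mean FPKM, the receptor was within the top 5.50% of tested genes in the luteal phase and within the top 35.8% in the follicular phase.

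KITLG had an FPKM of 18.1, 8.92, 8.91, 11.8 and 12.4 in follicular phase replicates 1 to 5. In luteal phase replicates 1 to 5 it was at 33.3, 41.5, 45.4, 49.3 and 52.8. Follicular phase replicate 1 was the highest of its phase and luteal phase replicate 1 the lowest of its phase, and they still differed, by 1.84 times. The phase means were 44.5 ± 7.52 and 12.0 ± 3.75 (SD, n = 5 each). The ligand was within the top 9.79% of tested genes by mean FPKM in the luteal phase and within the top 35.5% in the follicular phase.

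**Figure D1:**
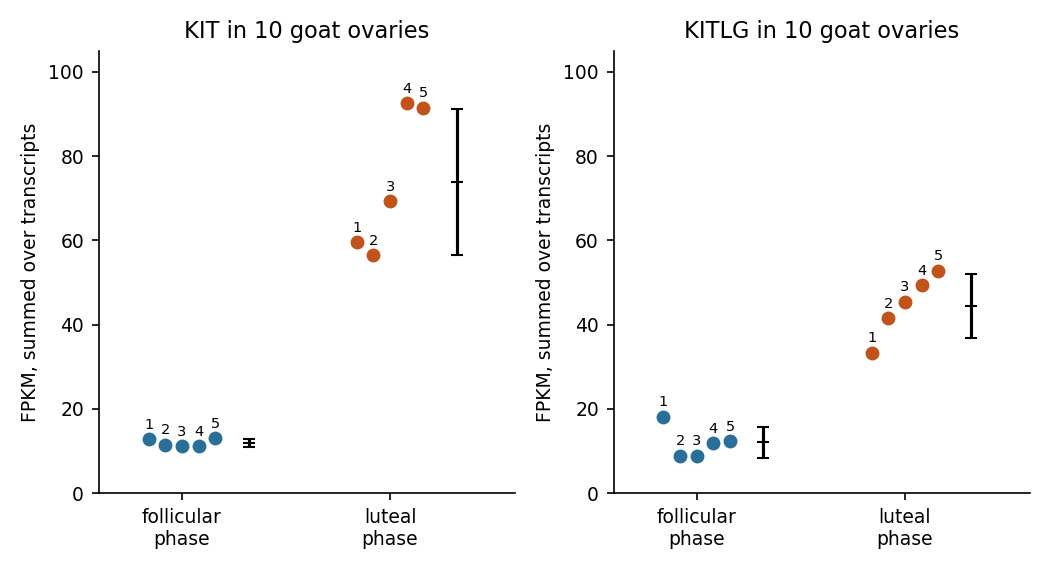
FPKM of KIT (left) and KITLG (right), summed over the transcripts of each gene, in each ovary. Numbered points are ovaries by replicate number, and bars show the mean and SD of 5 ovaries. All luteal phase points lie above all follicular phase points, from 56.5 FPKM upwards against at most 13.1 for KIT and from 33.3 upwards against at most 18.1 for KITLG.

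FPKM is scaled by length, so the levels of the receptor and the ligand can be set side by side within an ovary. In the follicular phase the ratio of KIT FPKM to KITLG FPKM was 0.706, 1.29, 1.25, 0.945 and 1.05 in replicates 1 to 5. In the luteal phase it was 1.79, 1.36, 1.53, 1.88 and 1.73. The follicular phase ratios lay on both sides of 1, the receptor was the more abundant in every luteal phase ovary, and the phases did not overlap. On the log2 scale, the ratio of KITLG to KIT averaged -0.72 ± 0.188 in luteal phase ovaries against -0.04 ± 0.350 in follicular phase ovaries (SD, n = 5 each). The difference was -0.68 (two-sided exact permutation test, p = 0.00794, adjusted p = 0.0119 over 3 tests), and this p is the smallest that 5 ovaries against 5 allow. The ligand therefore rose less than the receptor by more than the spread between ovaries. Without follicular phase replicate 1, the ovary with the most ligand for its receptor, the difference was -0.55.

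The ovaries formed separate clusters by phase, so the relation of KIT with KITLG was tested within the phases. With each ovary taken relative to its phase mean, Pearson's r was 0.598 over the 10 ovaries (exact permutation within phases, p = 0.0144, adjusted p = 0.115 over 8 relations) and Spearman's rho was 0.782 (exact permutation p = 0.0134, adjusted p = 0.107). The relation did not pass the correction. Without the 2 ovaries farthest from the median of KITLG, r was 0.617. In the luteal phase, replicates 1 and 2 were the lowest and replicates 4 and 5 the highest for both genes.

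**Figure D2:**
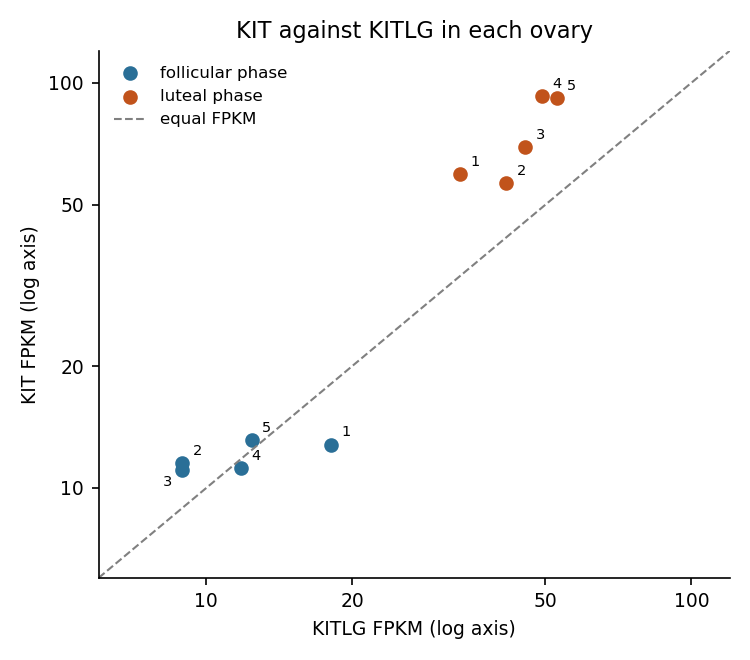
KIT FPKM against KITLG FPKM in each ovary, both on log axes, with ovaries numbered by replicate within their phase and a dashed line where the FPKM are equal. The 5 luteal phase ovaries lie above the line, with KIT at 1.36 to 1.88 times KITLG, and the 5 follicular phase ovaries lie on both sides of it.

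Most of the KIT signal came from the transcript XM_018049156.1. It was at 11.8, 10.9, 10.5, 10.1 and 12.5 FPKM in follicular phase replicates 1 to 5 and at 56.8, 54.7, 65.8, 89.3 and 88.5 in luteal phase replicates 1 to 5. It rose by 2.63 ± 0.15 on the log2 scale (limma adjusted p = 3.57e-06). The other KIT transcript, NM_001285724.1, was much lower, at 0.921, 0.595, 0.689, 1.04 and 0.590 FPKM in follicular phase replicates 1 to 5 and at 2.74, 1.87, 3.53, 3.31 and 2.97 in luteal phase replicates 1 to 5. It rose by 1.78 ± 0.23 on the log2 scale (limma adjusted p = 7.23e-04), and by 1.13 with a pseudocount of 1. Both KIT transcripts rose, and neither had phases that overlapped. Across all tested transcripts, 6.63% had every luteal phase value above every follicular phase value.

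For KITLG the main transcript was NM_001285670.1. It was at 15.8, 8.13, 8.11, 10.8 and 11.4 FPKM in follicular phase replicates 1 to 5 and at 31.0, 39.0, 42.7, 46.4 and 49.8 in luteal phase replicates 1 to 5, and rose by 1.96 ± 0.19 on the log2 scale (limma adjusted p = 1.36e-04). The minor transcript XM_018047536.1 was at 2.27, 0.781, 0.799, 1.01 and 1.05 FPKM in follicular phase replicates 1 to 5 and at 2.33, 2.50, 2.74, 2.83 and 3.00 in luteal phase replicates 1 to 5. It rose by 1.22 ± 0.27 on the log2 scale (limma adjusted p = 0.0121), and by 0.79 with a pseudocount of 1. Here the phases nearly touched, since follicular phase replicate 1 lay just below luteal phase replicate 1. Of the 32842 transcripts tested, 7.47% were called higher and 9.82% lower in the luteal phase, and 6.63% had every luteal phase value above every follicular phase value. All 4 transcripts of the pair were called higher without overlap.

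The main transcripts also took a larger share of their genes in the luteal phase. The minor KITLG transcript held 12.6, 8.76, 8.96, 8.51 and 8.42% of KITLG FPKM in follicular phase replicates 1 to 5 and 6.98, 6.02, 6.03, 5.74 and 5.68% in luteal phase replicates 1 to 5, with no overlap. The share of the main KITLG transcript averaged 93.9 ± 0.524% in luteal phase ovaries against 90.6 ± 1.76% in follicular phase ovaries (SD, n = 5 each), a difference of 3.35 percentage points (two-sided exact permutation test, p = 0.00794, adjusted p = 0.0119). Without follicular phase replicate 1, which had the lowest share, the difference was 2.57. For KIT the main transcript held 96.0 ± 0.832% and 93.5 ± 1.88%, a difference of 2.51 percentage points with overlapping phases (exact permutation test, p = 0.0317, adjusted p = 0.0317). For KIT the call was lost without luteal phase replicate 2, 4 or 5, where the difference was 2.35, 2.42 and 2.34 points (exact permutation test, adjusted p = 0.0635 each), and it held without follicular phase replicate 4, where the difference was smallest, at 1.81 points. How Cuffdiff divides fragments between transcripts that share exons sets these shares, and the error of that division is unknown.

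**Figure D3:**
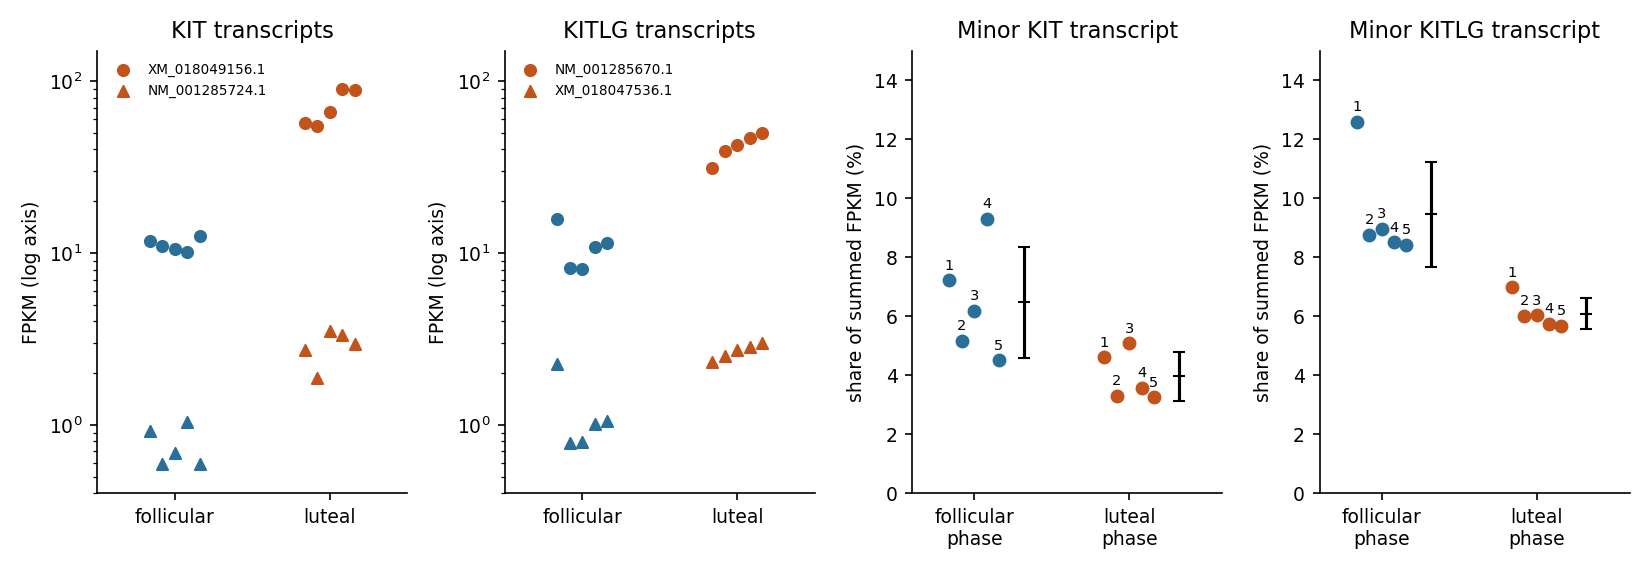
FPKM of the main (circles) and minor (triangles) transcripts of KIT and KITLG on log axes, and the share of each minor transcript in its gene's summed FPKM in percent, by phase, with ovaries in order of replicate number and, in the right 2 panels, mean and SD of 5 ovaries. Both transcripts of each gene are higher in the luteal phase, and the minor KITLG transcript falls from 9.44% to 6.09% of the gene on average.

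The other receptors of class III and their ligands were measured in the same ovaries. Of the 11 listed genes, 6 were called higher in the luteal phase, 0 lower and 5 were not called, with a median log2 fold change of 0.31. Across all tested genes, 43.7% were called in either direction, 15.9% higher and 27.8% lower. CSF1R, the receptor of macrophages for CSF1, went from 10.9 ± 4.25 to 19.7 ± 2.19 FPKM (log2 fold change 0.95, limma adjusted p = 0.00998), and its ligand CSF1 changed by 1.00 (adjusted p = 0.00118). PDGFRB, a receptor of pericytes and stromal cells, changed by 0.61 (adjusted p = 0.00368). Among the platelet-derived growth factors, PDGFA changed by 0.88 and PDGFB by 1.29 (limma adjusted p = 9.21e-04 and 1.22e-04), and PDGFD by 0.31 (adjusted p = 0.0350, lost in 9 of 19 alternatives). PDGFRA, the neighbour of KIT in the genome, was at 91.9 ± 15.6 and 102 ± 16.8 FPKM, with a log2 fold change of -0.15 (adjusted p = 0.376). None of the 11 reached the log2 fold change of KIT or of KITLG.

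A list of 95 genes was drawn up for the signalling around the receptor, with adaptors, kinase branches, proteases that cleave the ligand and transcription factors that act on KIT. Of these, 90 were tested, 23 were called higher and 27 lower in the luteal phase, and 40 were not called. The called share was 55.6%, where that of all tested genes was 43.7% (15.9% higher, 27.8% lower). The balance of directions depended on scaling, with 28 higher and 22 lower after each ovary was shifted to a common median, and 27 higher and 16 lower on the TPM scale. The median log2 fold change of the 90 genes was -0.03. None of them rose by as much as KIT or KITLG, the highest being SPRY4 at 1.60. STAT5A and SOHLH2 were not analysed here, and GATA1, TFAP2A and TFAP2C were below the filter of 0.1 FPKM in at least 5 ovaries.

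Adaptors and phosphatases bind the activated receptor or switch it off. Of 18 such genes, 2 were called higher, 8 lower and 8 were not called, so 55.6% were called where 43.7% of all tested genes were (15.9% higher, 27.8% lower). The number called lower was 5 without follicular phase replicate 1 or 3 or luteal phase replicate 2, and also 5 after a shift to a common median, with 4 then called higher, and on the TPM scale. GRB10, an adaptor that dampens growth factor receptors, rose from 4.95 ± 0.588 to 14.4 ± 3.73 FPKM (log2 fold change 1.48, limma adjusted p = 9.20e-05), and SOCS1, a suppressor of cytokine signalling, changed by 1.07 (adjusted p = 0.00557). The receptor phosphatase PTPRU fell by 1.03 on the log2 scale (adjusted p = 0.00289) and GRB7, at a low level of 0.216 ± 0.0936 FPKM in the follicular phase, by 0.89 (adjusted p = 0.0159). The adaptors with the highest levels changed little. SHC1 was at 41.6 ± 5.53 and 40.3 ± 4.48 FPKM (log2 fold change 0.05, adjusted p = 0.734), and CRK at 48.8 ± 2.65 and 55.1 ± 3.38 (log2 fold change -0.17, adjusted p = 0.0471, lost in 13 of 19 alternatives).

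In the PI3K, AKT and FOXO branch, 2 of 23 genes were called higher, 7 lower and 14 were not called. The called share was 39.1%, and that of all tested genes 43.7% (15.9% higher, 27.8% lower). Of this branch 11 genes were called lower without follicular phase replicate 2 and 3 on the TPM scale, and 1 was called higher without follicular phase replicate 1 or luteal phase replicate 1, 4 or 5. The regulatory subunits of PI3K differed from each other. PIK3R3 changed by 0.58 (limma adjusted p = 0.00291), while PIK3R1, the most abundant of the 3, fell by 0.62 on the log2 scale to 30.0 ± 4.51 FPKM (adjusted p = 0.00208) and PIK3R2 by 0.60 (adjusted p = 0.0139, lost in 1 of 19 alternatives). FOXO3, the factor that holds primordial oocytes at rest and is named here after its values were seen, fell by 0.47 (adjusted p = 0.00311). RHEB, the activator of mTOR, was the most abundant of the branch, at 101 ± 8.74 and 95.1 ± 7.15 (log2 fold change 0.09, adjusted p = 0.382).

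In the RAS and MAP kinase branch, 7 of 19 genes were called higher, 4 lower and 8 were not called. The called share was 57.9%, against 43.7% of all tested genes (15.9% higher, 27.8% lower). The 3 Sprouty genes, which encode feedback inhibitors of receptor tyrosine kinase signalling, all rose. SPRY1 went from 9.67 ± 2.59 to 24.4 ± 2.74 FPKM (log2 fold change 1.36, limma adjusted p = 9.03e-05), SPRY2 from 7.47 ± 1.26 to 19.4 ± 3.48 (log2 fold change 1.36, adjusted p = 3.97e-05) and SPRY4 from 0.391 ± 0.0853 to 1.41 ± 0.372 (log2 fold change 1.60, adjusted p = 1.68e-04). None of these 3 genes had phases that overlapped, where 11.2% of all tested genes had every luteal phase value above every follicular phase value. The kinase ARAF changed by 0.94 (adjusted p = 1.17e-05) and MAP2K1 by 0.41 (adjusted p = 5.76e-04). RASA1, a RAS inhibitor, was at 27.9 ± 0.754 and 27.2 ± 1.48 FPKM (log2 fold change 0.04, adjusted p = 0.632).

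In the SRC, JAK-STAT and PLC branch, 3 of 13 tested genes were called higher, 4 lower and 6 were not called. That is 53.8% called, against 43.7% of all tested genes (15.9% higher, 27.8% lower). With a replicate block, and under each of the 3 other scalings (TPM, quantile normalization, common median), 5 were called higher. FYN, a kinase of the SRC family, rose from 14.0 ± 1.47 to 29.7 ± 1.64 FPKM (log2 fold change 1.08, limma adjusted p = 3.43e-06). STAT3 changed by 0.60 (adjusted p = 0.0185), STAT5B fell by 0.60 (adjusted p = 0.00126) and PRKCA, a protein kinase C, by 0.67 (adjusted p = 9.34e-04).

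Of 7 proteases able to release growth factors such as KITLG from the cell surface, 4 were called higher, 1 lower and 2 were not called, where 15.9% of all tested genes were called higher and 27.8% lower. ADAM10 rose from 35.2 ± 0.915 to 45.9 ± 3.11 FPKM (log2 fold change 0.38, limma adjusted p = 6.19e-04), ADAM17 from 13.5 ± 0.742 to 17.6 ± 1.41 (0.38, adjusted p = 0.00225) and ADAM9 from 20.8 ± 2.09 to 35.0 ± 4.41 (0.75, adjusted p = 1.95e-04). ADAM19 changed by 0.83 (adjusted p = 0.00551). The gelatinase MMP9 went the other way, from 10.5 ± 3.51 to 2.17 ± 1.22 FPKM (log2 fold change -2.28, adjusted p = 3.29e-04).

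Of 10 tested transcription factors that act upstream of KIT in one cell type or another, 5 were called higher, 3 lower and 2 were not called. That is 80.0% called, against 43.7% of all tested genes (15.9% higher, 27.8% lower). The number called lower was unstable, at 0 without luteal phase replicate 4, at 1 without follicular phase replicate 1 or 5 or luteal phase replicate 1 or 5, without a filter and on the TPM scale, and at 5 without follicular phase replicate 2. The factors TAL1, LYL1 and LMO2, known from blood and endothelium, were called higher. TAL1 went from 0.896 ± 0.108 to 2.21 ± 0.308 FPKM (log2 fold change 1.21, limma adjusted p = 7.91e-05), LYL1 changed by 1.08 (adjusted p = 9.32e-04) and LMO2 by 0.63 (adjusted p = 0.0355, lost in 7 of 19 alternatives). The oocyte factors LHX8 and NOBOX were called lower. LHX8 changed by -1.43 (adjusted p = 0.0391, lost in 9 of 19 alternatives) and NOBOX by -1.14 (adjusted p = 0.0214, lost in 1 of 18 alternatives), both at levels below 3 FPKM in every ovary. MITF, a factor of melanocytes and mast cells, was at 11.4 ± 2.16 and 18.5 ± 6.58 FPKM (log2 fold change -0.64, adjusted p = 0.0482, lost in 13 of 19 alternatives).

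**Figure D4:**
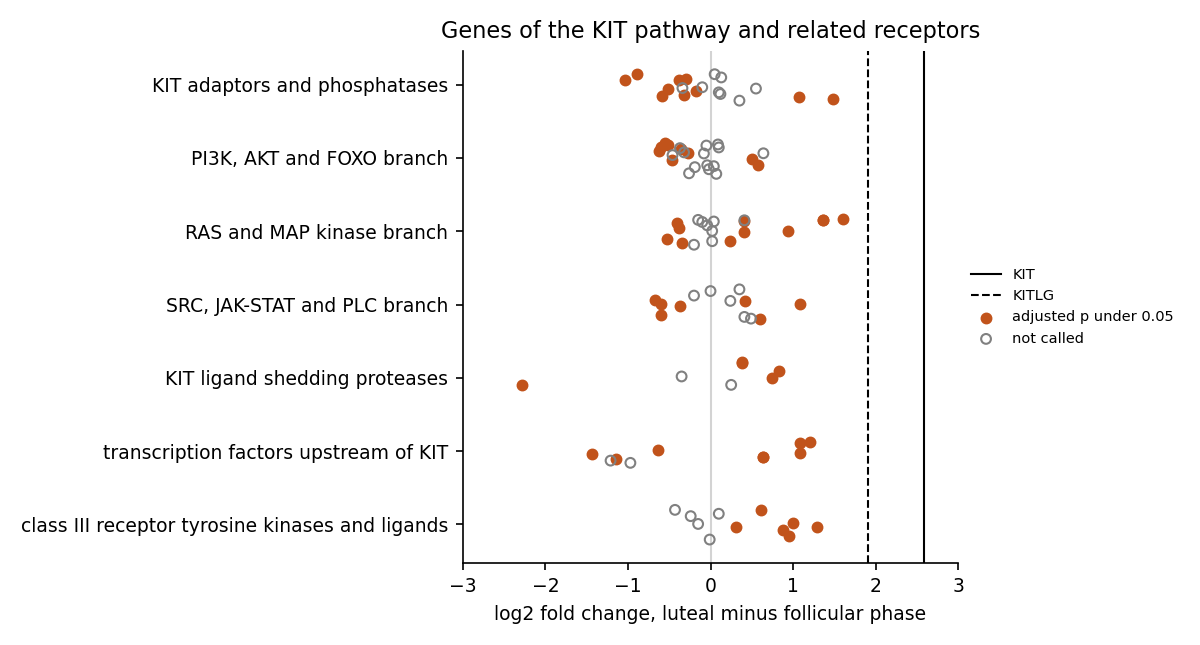
Log2 fold change (luteal minus follicular phase) of each tested gene, by list, with called genes filled and the others open. The vertical lines mark KIT at 2.59 and KITLG at 1.91, and every gene of the 7 lists lies to the left of both lines.

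KIT and KITLG are made by particular cell types, so marker genes of those cells were set beside them. Whether a change in cell make-up has a part in the rise of either gene was not tested. Oocyte markers, for the cell best known for KIT, moved the other way. Of 15 tested, 0 were called higher, 9 lower and 6 were not called, with a median log2 fold change of -1.14, where 27.8% of all tested genes were called lower, and the summed FPKM of the list ranged over 12.9 to 28.4 in luteal and 24.7 to 73.7 in follicular phase ovaries. GDF9 changed by -0.91 and BMP15 by -1.55 (limma adjusted p = 0.00125 and 1.90e-04), ZP2 by -0.75 and ZP3 by -1.24 (adjusted p = 0.00999 and 0.0152). The phase-centred r of KIT with the mean level of these genes was 0.025 (exact permutation p = 0.944, adjusted p = 0.944), and rho was 0.055 (exact permutation p = 0.886, adjusted p = 0.886).

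Mast cell markers were low in both phases and moved in both directions. Of 14 listed, 10 were in the table and 7 were tested, of which 2 were called higher and 1 lower (2 lower without luteal phase replicate 4 or without a filter, 0 with a minimum of 0.5 FPKM). The called share of 42.9% was close to the 43.7% of all tested genes (15.9% higher, 27.8% lower). The summed FPKM of the list ranged over 7.99 to 11.2 in luteal and 3.76 to 6.53 in follicular phase ovaries. The largest change was that of HPGDS, a prostaglandin D synthase that macrophages also make, at 4.70 ± 1.45 and 0.513 ± 0.262 FPKM. GATA2, a factor that endothelial cells also use, rose from 0.755 ± 0.124 to 1.24 ± 0.307 (limma adjusted p = 0.0174), and LTC4S was at 1.24 ± 0.881 and 0.626 ± 0.326 (adjusted p = 0.232). The genes CPA3, at 0.169 ± 0.142 and 0.362 ± 0.152 FPKM, HDC, at 0.0853 ± 0.0185 and 0.153 ± 0.0662, and MS4A2, at 0 to 0.0454 and 0.0416 to 0.177, were near 0 in both phases. FCER1A, at 0.158 ± 0.123 and 0.596 ± 0.359, fell by 1.43 on the log2 scale (limma adjusted p = 0.0109). TPSAB1, TPSB2, CMA1 and SIGLEC6 were not analysed here. With KIT, the phase-centred r of the list's mean was -0.263 (exact permutation p = 0.408, adjusted p = 0.585) and rho -0.370 (exact permutation p = 0.310, adjusted p = 0.496), and without the 2 farthest ovaries r was -0.702. Melanocyte markers were low too. TYR, TYRP1, DCT and MLANA were listed at 0 in every luteal phase ovary, and the summed FPKM of the 7 genes ranged over 1.76 to 4.31 in luteal and 3.78 to 6.70 in follicular phase ovaries. Of the 3 tested, 1 was called higher and 2 lower, and these counts were 0 and 1 without follicular phase replicate 2, 3 or 5 or luteal phase replicate 1, 4 or 5.

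Markers of theca cells, which also carry KIT, were called in both directions, with 2 of 8 higher and 6 lower (15.9% and 27.8% of all tested genes) and a summed FPKM of 518 to 917 in luteal and 320 to 392 in follicular phase ovaries. ALDH1A1, a retinaldehyde dehydrogenase, made up most of the higher sum, at 538 ± 193 FPKM in luteal and 141 ± 12.6 in follicular phase ovaries (log2 fold change 1.87, limma adjusted p = 5.01e-05). CYP17A1, the enzyme of androgen synthesis, fell by 1.71 and INSL3 by 2.42 on the log2 scale (limma adjusted p = 0.00390 and 9.81e-05), while the LH receptor LHCGR, which the luteal list also holds, rose from 12.5 ± 3.66 to 90.5 ± 14.1 FPKM (log2 fold change 2.87, adjusted p = 5.95e-07). PTCH1, a target of hedgehog signalling in theca, changed by -0.86 (adjusted p = 9.28e-04). The phase-centred r of KIT with this list was 0.096 (exact permutation p = 0.752, adjusted p = 0.860) and rho 0.261 (exact permutation p = 0.431, adjusted p = 0.575). Once the 2 farthest ovaries were left out, r was 0.494 (exact permutation, adjusted p = 0.488).

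Granulosa cell markers, for the cell best known for KITLG, were mostly lower in the luteal phase. Of 14 tested, 1 was called higher, 8 lower and 5 were not called (27.8% of all tested genes were called lower), with a median log2 fold change of -0.99 and a summed FPKM that overlapped, at 361 to 1229 in luteal and 572 to 1871 in follicular phase ovaries. FSHR changed by -0.94, AMH by -1.42 and FOXL2 by -0.76 (limma adjusted p = 0.00210, 6.19e-04 and 0.00233). INHA had a log2 fold change of -1.04 and was not called (limma adjusted p = 0.149), though it was called in 3 of 19 alternatives. The only gene called higher was NR5A2, a nuclear receptor that luteal cells also use, at 36.5 ± 7.16 and 12.2 ± 2.76 FPKM. KITLG thus moved opposite to FSHR, AMH and FOXL2. Its phase-centred r with the list was 0.299 (exact permutation p = 0.419, adjusted p = 0.585) and rho 0.115 (exact permutation p = 0.776, adjusted p = 0.886), and without the 2 farthest ovaries r was 0.806.

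Endothelial markers rose together with the pair. Of 12 tested, 11 were called higher, 0 lower and 1 was not called (15.9% of all tested genes were called higher), with a median log2 fold change of 1.04 and a summed FPKM of 306 to 405 in luteal and 175 to 213 in follicular phase ovaries. PECAM1 changed by 1.02, CDH5 by 1.41, VWF by 0.91 and TEK by 1.10 (limma adjusted p = 1.22e-04, 1.51e-06, 3.37e-04 and 7.60e-06). The phase-centred r of KIT with the list was 0.658 (exact permutation p = 0.0615, adjusted p = 0.246) and rho 0.467 (exact permutation p = 0.230, adjusted p = 0.496), and that of KITLG was 0.295 (exact permutation p = 0.401, adjusted p = 0.585) with a rho of 0.442 (exact permutation p = 0.237, adjusted p = 0.496). Leaving out the 2 farthest ovaries gave an r of 0.455 for KIT and 0.395 for KITLG. None of these relations passed the correction.

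Markers of the corpus luteum rose far more. All 9 tested were called higher, where 15.9% of all tested genes were, with a median log2 fold change of 4.61 and a summed FPKM of 12036 to 15146 in luteal and 388 to 569 in follicular phase ovaries. STAR changed by 7.35, CYP11A1 (listed as LOC102173131) by 4.87, SCARB1 by 4.01 and PTGFR by 4.18. None of these had phases that overlapped, where 11.2% of all tested genes had every luteal phase value above every follicular phase value. The log2 fold changes of KIT and KITLG lay above those of all 12 endothelial genes and below those of all 9 luteal genes. The phase-centred r of KITLG with the luteal list was 0.308 (exact permutation p = 0.438, adjusted p = 0.585) and rho 0.394 (exact permutation p = 0.292, adjusted p = 0.496), and without the 2 farthest ovaries r was 0.090.

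Smooth muscle markers were lower in the luteal phase in 8 of 9 cases, with ACTA2 at -0.81, MYH11 at -1.25, TAGLN at -0.66 and CNN1 at -1.07 (limma adjusted p = 0.00177, 1.29e-04, 0.00548 and 0.00152). The exception was the pericyte gene RGS5, at 82.1 ± 22.7 and 45.1 ± 8.99 FPKM. Stromal markers were mixed, with 3 of 8 called higher, 2 lower and 3 not called, and 1 was called lower without follicular phase replicate 1, 3 or 4 or luteal phase replicate 2, 4 or 5, after a shift to a common median and on the TPM scale. Of all tested genes, 15.9% were called higher and 27.8% lower. DCN was at 944 ± 182 and 1064 ± 141 FPKM (adjusted p = 0.335), LUM changed by 1.51 and COL1A2 by 0.52 (limma adjusted p = 0.00352 and 0.0216), and COL1A1 was at 334 ± 118 and 265 ± 58.0 (adjusted p = 0.313). Of 8 blood genes 2 were tested and 0 were called by limma (1 without follicular phase replicate 5), and PTPRC, the leukocyte antigen CD45, was at 10.9 ± 1.49 and 10.1 ± 3.78 FPKM.

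**Figure D5:**
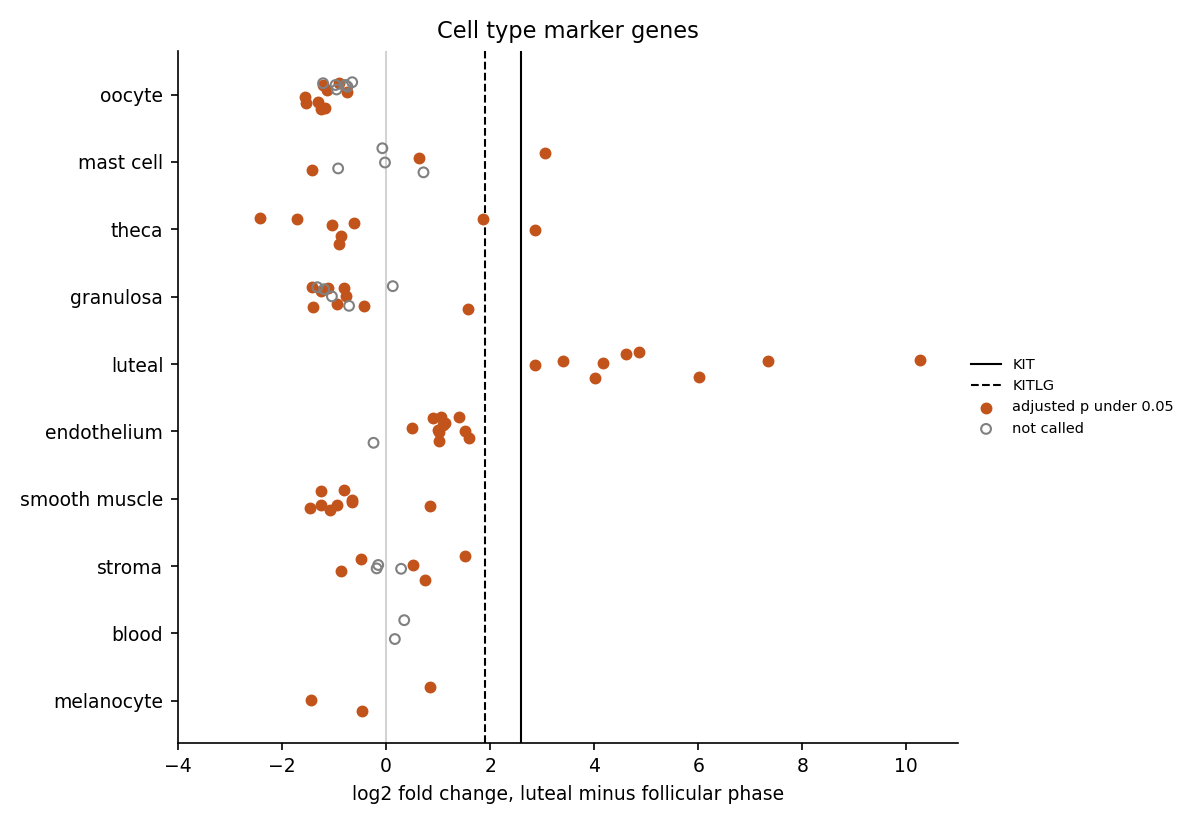
Log2 fold change (luteal minus follicular phase) of each tested marker gene, by cell type list, with called genes filled and the others open. KIT (solid line, 2.59) and KITLG (dashed line, 1.91) lie to the right of all oocyte, granulosa, endothelial and smooth muscle genes and to the left of all luteal genes.

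The genes beside KIT and KITLG in the genome did not share the size of their change. Gene order was taken from RefSeq start positions (goat assembly ARS1.2), and no distances between genes are given. KIT lies between PDGFRA, given above, and KDR, the main receptor for VEGF, which the endothelial list also holds. KDR went from 25.7 ± 3.20 to 79.1 ± 19.6 FPKM (log2 fold change 1.59, limma adjusted p = 3.43e-05), with 54.4 to 98.0 in the luteal phase ovaries and 21.3 to 28.5 in the follicular phase ovaries. The next gene on that side, SRD5A3, had a log2 fold change of 0.18 and was not called (adjusted p = 0.181), and GSX2, beyond PDGFRA, was below the filter. KITLG lies between TMTC3 and DUSP6. DUSP6, a phosphatase of MAP kinases, went from 13.1 ± 1.70 to 17.2 ± 1.89 FPKM (log2 fold change 0.40, adjusted p = 0.0110), and TMTC3 changed by 0.18 (adjusted p = 0.0475, lost in 11 of 19 alternatives). CEP290 and POC1B, which come next on either side, changed by -0.36 and -0.46 (adjusted p = 0.0472 and 0.0182, lost in 13 and 1 of 19 alternatives).

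The genes with a pattern most like that of KIT were ranked by Pearson's r with KIT on log2(FPKM + 0.1), using all 10 ovaries, as a description across 15358 genes. They were MICU2 (r = 0.997), CRABP1 (0.995), SCARB1 (0.994), MASP1 (0.993) and PTGER3 (0.992). SCARB1, the receptor that takes up cholesterol from HDL, was at 160 ± 28.5 FPKM in luteal and 9.73 ± 1.28 in follicular phase ovaries, and MICU2, a regulator of mitochondrial calcium uptake, at 55.7 ± 4.73 and 24.2 ± 1.20. Any gene that separates the phases gets a high r, and 912 genes had an r of at least 0.9 with KIT. KITLG was in place 206 of this order, with an r of 0.969. After the phase means were subtracted, the most similar genes were GSPT2 (0.975), ASS1 (0.959), LOC102183297 (0.954), C23H6orf52 (0.951) and COMMD3 (0.950). ASS1, an enzyme of arginine synthesis, was at 17.3 ± 6.48 and 3.88 ± 0.523 FPKM, whereas GSPT2, a translation termination factor, had a log2 fold change of 0.11 (limma adjusted p = 0.401). LOC102183297 was very low, at 0.522 ± 0.408 FPKM in luteal and 0.0615 ± 0.0532 in follicular phase ovaries.

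For KITLG the most similar genes over the 10 ovaries were GJA9 (r = 0.993), PPP1R9A (0.991), LOC108638507 (0.988), GGACT (0.988) and COBLL1 (0.988). GJA9 was very low, at 0.227 ± 0.0372 FPKM in luteal and 0.0341 ± 0.0185 in follicular phase ovaries, while PPP1R9A, which encodes an actin-binding protein, was at 14.1 ± 1.57 and 7.71 ± 0.991. An r of at least 0.9 was reached by 703 genes, and KIT was in place 45. With the phase means subtracted, the order was led by CDH2 (0.967), SLC9A2 (0.960), NPR3 (0.944), GJA9 (0.935) and NEURL3 (0.922). CDH2, the N-cadherin of granulosa cell contacts, moved opposite to KITLG between the phases, at 20.8 ± 2.58 FPKM in luteal and 42.0 ± 6.42 in follicular phase ovaries (log2 fold change -1.01, limma adjusted p = 7.65e-05). Its r within phases was picked as the highest of 15358 genes in these same ovaries, so it is a description and not a test. NPR3, the clearance receptor for natriuretic peptides, was at 5.51 ± 1.26 and 2.84 ± 0.963. No gene stood in the first 5 of both KIT and KITLG.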

How the data were processed

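Clean paired-end reads of 10 ovary libraries were aligned by the authors with HISAT2, assembled with StringTie and quantified per transcript and ovary with Cuffdiff. The deposited values are the authors' FPKM, and the genome build is not given in the sources used here. All 43766 rows of the separate mRNA table and 1173 rows of the annotated lncRNA table equal those of the all-transcript table, which was used. Columns were assigned to ovaries by phase and number. Here FPKM of protein-coding transcripts were summed by symbol. Those reaching 0.1 FPKM in 5 or more ovaries entered the test, on log2(FPKM + 0.1), which understates changes of low genes, with limma 3.58.1 in R 4.3.3 (eBayes with trend, luteal minus follicular, two-sided, Benjamini-Hochberg over everything tested, threshold 0.05). Single values were compared by exact permutation of the ovaries, relations by exact permutation within phases, with Benjamini-Hochberg adjustment, in Python 3.11.15 with numpy 2.4.6 and pandas 2.3.3. The model was also run on simulated data, and the outcome is not given here. Members, lists and tests were chosen with earlier results of these data known. CYP17A1 and CYP11A1 were matched through RefSeq synonyms. Genes are named by a rule: called genes of a list where 6 or fewer, otherwise the 4 with the largest change, plus the 2 most abundant; the first 4 markers of each cell type; 2 neighbours on each side; and the 5 most similar genes. A few others were named after their values were seen, and some genes that the rule picks are not reported here, though the counts of their lists hold them. Equal replicate numbers are not tied by the labels. Each choice was varied by a pseudocount of 1 or 0.01, a filter dropped or raised to 0.5 FPKM, a shift to a common median, quantile normalization, TPM, no trend, a replicate block and leaving out each ovary. No sequences were at hand, so none are shown.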

Additional observations from a re-analysis of the deposited data

Results flagged for a closer look

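In 3 cases an ovary stood apart from the other 4 of its phase by a gap of over 0.71 of the phase's range (Dixon's test), in the KITLG transcripts each time. Chance gives such a gap in about 1 of 20 groups, and 18 groups were examined. The minor KITLG transcript XM_018047536.1 was at 2.27 FPKM in follicular phase replicate 1 and at 0.781 to 1.05 in the others. The share of the main KITLG transcript was 87.4% in the same ovary and 91.0 to 91.6% in the other follicular phase ovaries. In luteal phase replicate 1 this share was 93.0%, against 94.0 to 94.3% in the others.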

How the results depend on the processing

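In the 19 alternatives, the log2 fold changes of KIT (2.50 to 2.70, highest adjusted p 2.64e-05) and KITLG (1.81 to 2.07, highest adjusted p 6.51e-04) and of their 4 transcripts kept their direction and call. A pseudocount of 1 lowered the minor transcripts most, to 0.79 for XM_018047536.1 and 1.13 for NM_001285724.1. The ratio kept its direction and call in 13 of the 14 alternatives run for it and the share of the main KITLG transcript in 11 of 12, the replicate block being the exception. Values within an ovary were not recomputed under the filters or the other scalings. With the replicate block, a sign-flip test of 5 differences gave -0.68 for the ratio, 2.51 points for the KIT share and 3.35 for the KITLG share, all at an adjusted p of 0.0625, the smallest such a test allows. Leaving out 1 ovary gave -0.76 to -0.55 for the ratio, 1.81 to 3.01 points for the KIT share and 2.57 to 3.61 for the KITLG share, and the KIT share lost its call in 3 of these fits. Ovaries with equal numbers deviated together weakly (r = 0.026 to 0.199), so the numbers were not read as pairs, and the limma block fits kept the calls of both genes. The r of KIT with oocyte markers was -0.111 after a shift to a common median and -0.119 without the 2 farthest ovaries. Pathway genes called lower numbered 16 on the TPM scale, where the all-gene median rose by 0.09; leaving out 1 ovary gave 20 to 25 called higher and 21 to 32 lower. Uncalled genes near 0 changed sign: SHC1 to -0.01 (quantile normalization) and -0.03 to 0.10 (1 ovary left out), RHEB to -0.02 and DCN to 0.03 (quantile normalization). Of 93 other named genes, 76 kept direction and side of the threshold in every alternative that tested them. Of the uncalled ones, INHA was called in 3 of 19 alternatives, C23H6orf52 in 2, COL1A1 and RHEB in 1 each and CPA3 in 1 of 18. With a pseudocount of 1, chosen after seeing the data, 4, 5, 4 and 4 of the 5 most similar genes stayed in the first 5 (KIT, KIT within phases, KITLG, KITLG within phases). The lowest place of a named gene was then 15 for KIT, 5 for KIT within phases, 6 for KITLG and 41 for KITLG within phases, where the lowest r was 0.844. Without read counts per library, low transcripts have no counting error.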
